A study of Mus musculus with 2 samples.

Results

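The 116 cells described here are the sorted tumour cells with the largest share of their transcripts in 5 genes: the chemokine receptor genes Cxcr3 and Cxcr6, the matrix protease gene Mmp9, the ubiquitin ligase gene Asb2 and the granzyme gene Gzmc. They are 116 of 774 tumour cells that remained after cells with melanoma, macrophage or mitotic transcripts were set aside, of 1475 tumour cells called and of 3688 cells in the whole series. The values of these 5 genes chose the members, so their levels are a description and support nothing. The other 658 cells of the same set are the comparison throughout. Gzmc turned out to be too sparse to mark the members. They are therefore called here by the receptor genes that supply most of the score, the Cxcr3 or Cxcr6 high cells. The name does not mean that each member was high in both.

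Both libraries came from C57BL/6 mice of genotype Foxp3Cre-YFP, aged 5 to 8 weeks, which the series' design text calls wild type. In this allele Cre recombinase and a yellow fluorescent protein are made from the Foxp3 locus, the gene of the factor that defines regulatory T cells, or Treg cells. Both groups carry it, and the labels name no floxed allele, drug or vaccine in either. The tumour library was made at day 14 of B16, a melanoma line of C57BL/6 origin, and the other library from lymph node of unchallenged animals. The labels say that cells were sorted without naming the gate, and they do not say how many mice were used. Each tissue has 1 library, so nothing has a replicate check, no test was made between groups of cells and no p-value is given. All intervals are 95% intervals for counting error only and leave out differences between cells and between mice.

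CXCR3 is the receptor for the interferon-inducible chemokines CXCL9, CXCL10 and CXCL11, and in Treg cells it is known as part of the type 1 programme under the transcription factor T-bet. CXCR6 binds CXCL16, a chemokine made largely by myeloid and dendritic cells, and is a common receptor of T cells that have settled in tumours and other tissues. MMP9 is a secreted gelatinase that cuts basement membrane collagen. ASB2 is the substrate-binding subunit of a cullin-5 ubiquitin ligase that marks filamins for degradation. Granzyme C is one of the serine proteases stored in the granules of cytotoxic lymphocytes, and S100A4, listed with the others as a marker, is a calcium-binding protein of motile and memory cells.

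Cxcr3 and Cxcr6 supplied most of the score, and their promoters are shown because these transcripts carry most of what the members are chosen for. Each sequence, from RefSeq on GRCm38.p6, holds 250 bases before the start of transcription and 50 after it, written in the direction of the gene, with matches to the core RUNX motif (TGTGGT, or ACCACA on the other strand) in capitals.
Cxcr6, chr9:123806227-123806526, plus strand: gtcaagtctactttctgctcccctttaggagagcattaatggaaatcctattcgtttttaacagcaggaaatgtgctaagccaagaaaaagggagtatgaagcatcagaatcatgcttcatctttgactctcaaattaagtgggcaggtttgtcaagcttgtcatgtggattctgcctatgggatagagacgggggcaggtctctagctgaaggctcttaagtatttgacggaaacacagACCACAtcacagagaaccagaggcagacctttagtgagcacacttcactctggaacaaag
Cxcr3, chrX:101734098-101734397, minus strand: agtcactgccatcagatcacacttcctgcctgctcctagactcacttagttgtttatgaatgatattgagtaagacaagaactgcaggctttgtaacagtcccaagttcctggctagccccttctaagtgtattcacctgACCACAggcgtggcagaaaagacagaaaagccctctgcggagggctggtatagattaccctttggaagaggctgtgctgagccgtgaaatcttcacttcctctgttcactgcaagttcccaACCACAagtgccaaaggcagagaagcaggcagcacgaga
The capitals begin at position -10 from the start of transcription in Cxcr6, and at -110 and +12 in Cxcr3. The letters of this motif were found on either strand in 16.8% of the 32851 RefSeq promoters of this length. No match was found in either sequence to a T-box motif (GGTGTGA, in 3.98% of promoters) or an AP-1 motif (TGANTCA, in 7.81%), on either strand. A match is a description of the letters and not evidence of binding, and no match says only that these letters are not in the window.

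In GENCODE M21 on GRCm38, the assembly that the submitters' processing notes call mm10, Cxcr6 (ENSMUSG00000048521) lies on chromosome 9 from 123806475 to 123811760 on the plus strand. Cxcr3 (ENSMUSG00000050232) lies on chromosome X from 101731535 to 101734269 on the minus strand, and Mmp9 (ENSMUSG00000017737) on chromosome 2 from 164940780 to 164955850 on the plus strand. Asb2 (ENSMUSG00000021200) spans 103321142 to 103356001 on the minus strand of chromosome 12. Gzmc (ENSMUSG00000079186) spans 56231441 to 56234656 on the minus strand of chromosome 14, and S100a4 (ENSMUSG00000001020) spans 90603771 to 90606045 on the plus strand of chromosome 3. All are protein-coding genes, and the libraries read transcripts from the 3′ end.

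The tumour library held 23618037 UMIs (unique molecular identifiers, each counted as 1 transcript) and the lymph node library 14000036. A tumour barcode was taken as a cell from 3834 UMIs, provided that 200 genes or more were detected and that mitochondrial genes took no more than 10% of its UMIs. Members had a median of 5739 UMIs and 1904.5 genes, the other cells 6492 UMIs and 2075.5 genes, and 2126 lymph node cells under the same limits 4005.5 UMIs and 1319.5 genes. Ribosomal protein genes took 23.2% of the members' UMIs, 26.7% of the other cells' and 42.4% of the lymph node cells'. Levels are given below as CPM, the UMIs of a gene summed over the cells of a group divided by all UMIs of the group and multiplied by 1000000. 1 barcode sequence occurred among the cells of both libraries and was no member.

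The members carried T cell and Treg transcripts. All 8 T cell markers and all 9 Treg markers of the lists used here were detected, and Cd8a had no UMI in any cell of the set. Ikzf2, which encodes the Treg factor Helios, stood at 1473 CPM in the members, 1311 in the other cells and 713 in lymph node cells. Foxp3 itself was sparse, with 29 UMIs in the members: 40.9 CPM in the members, 21.1 in the other cells and 22.6 in lymph node cells. At equal depth, with every cell thinned to 3834 UMIs, a Foxp3 UMI was found in 13.8% of members, 8.05% of other cells and 7.15% of lymph node cells. The ratio of members to other cells was 1.94 (1.24 to 2.96), and it lay between 1.23 and 2.22 over the 21 alternative settings that can change a ratio.

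Defining transcripts of most other cell types were at or near 0 in the members. Of the macrophage and monocyte list, 8 of 14 genes were at 0, among them C1qa, Csf1r and Adgre1, and the whole list summed to 22.6 CPM in members and 17.5 in the other cells. The melanoma list summed to 64.9 and 46.5 CPM, with Tyr, Sox10 and Trpm1 at 0 in members and no member above 3 UMIs. B cell, NK cell, neutrophil, fibroblast, endothelial and erythroid lists summed to 7.05, 8.46, 1.41, 2.82, 2.82 and 1.41 CPM in members, in that order. The CD8 T cell list summed to 5617 CPM in members and 3828 in the other cells, nearly all of it Ccl5 and Nkg7, while Cd8a, Gzmk, Eomes and Klrd1 were at 0. Cd8b1, which is in that list, had 11 UMIs in members and 97 in the other cells. The dendritic cell list summed to 444 and 453 CPM, with Itgax, Flt3, Clec9a, Siglech, Cd209a and Batf3 at 0 in members. The part of these transcripts in the results below was not tested.

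**Figure D1:**
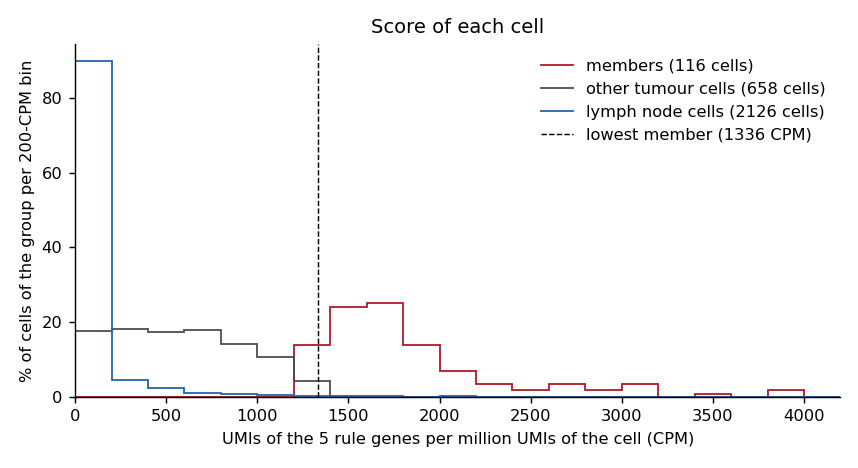
Distribution of the score (CPM of the 5 rule genes together in each cell, in bins of 200 CPM) as the percentage of cells in each group, for members, other tumour cells and lymph node cells. The dashed line marks the lowest member at 1336 CPM, which falls inside a bin shared with other cells, and the scores run across it without a gap.

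The members are the upper end of a continuous range and not a separate group of cells. Their score ran from 1336 CPM through a median of 1689.7 to 3874, and that of the other cells from 0 through 560.0 to 1328, with 51 other cells at 0. The 3 lowest members held 15 score UMIs of 11231, 11 of 8211 and 9 of 6691 (1336, 1339.7 and 1345 CPM). The 3 highest of the other cells held 8 of 6023, 12 of 9071 and 10 of 7578 (1328, 1323 and 1319.6 CPM). Within 10% of the boundary lay 52 cells, 25 of them members. The score itself rests on few molecules, with 6 to 26 UMIs and a median of 10 per member, and 52 members had fewer than 10. Few lymph node cells reached the boundary, 13 of 2126, or 0.611%.

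Gzmc did not mark the members. They held 11 Gzmc UMIs in 4 of 116 cells, 8 of them in a single cell, and the other cells held 30 UMIs in 29 of 658 cells. The levels were 15.5 CPM in the members, 6.19 in the other cells and 2.43 in lymph node cells, and the ratio of 2.51 (1.13 to 5.14) rested on that cell. Without the 2% of cells with the most UMIs of the gene in each group it was 0.854. At equal depth a Gzmc UMI was found in 1.72% of members (0.209% to 6.09%) and 3.04% of other cells (1.87% to 4.66%), so the share was no higher in the members. The mitotic tumour cells that the rule set aside, leaving out those over the melanoma or macrophage limit, held more, at 207 UMIs in 64 of 683 cells and 18.6 CPM, with 42.0% of those UMIs in 3 cells. Dropping Gzmc from the score left all 116 members the same. The neighbouring granzyme genes Gzmd, Gzme, Gzmf and Gzmg had no UMI in members, other cells or lymph node cells.

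Cxcr6 and Mmp9 stood highest over the other cells, ahead of Cxcr3 and Asb2. Cxcr6 was at 638 CPM in the members, 144 in the other cells and 15.9 in lymph node cells, a ratio of 4.43 (3.93 to 4.99) to the other cells. Mmp9 was at 135 CPM in the members, 24.0 in the other cells and 0.634 in lymph node cells, a ratio of 5.65 (4.27 to 7.47). Cxcr3 was the most abundant of the 5, at 749 CPM in the members, 288 in the other cells and 38.1 in lymph node cells (2.60, 2.35 to 2.87). Asb2 was at 285 CPM in the members, 111 in the other cells and 1.27 in lymph node cells (2.57, 2.18 to 3.03). All 4 transcripts were low in lymph node, where Mmp9 had 6 UMIs and Asb2 12 among 2126 cells.

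At equal depth a Cxcr3 UMI was found in 87.1% of members and 62.3% of other cells, and a Cxcr6 UMI in 65.5% and 29.5%. The shares were 53.4% and 29.9% for Asb2 and 36.2% and 8.97% for Mmp9. Most other tumour cells thus also held a Cxcr3 UMI. Without thinning, the shares in members were 92.2%, 70.7%, 61.2% and 39.7% for Cxcr3, Cxcr6, Asb2 and Mmp9, at a median of 5739 UMIs, and 3.45% for Gzmc. As a background, 15 tumour barcodes rich in melanoma transcripts, at a median of 70488 UMIs, held a UMI of these genes in 11, 3, 6, 1 and 1 cases. That is 21, 2.42, 5.65, 0.807 and 0.807 CPM. In tumour droplets of at most 100 UMIs, which hold free RNA, Cxcr3 stood at 236 CPM, Cxcr6 at 119.7, Asb2 at 71.3, Mmp9 at 10.5 and Gzmc at 10.7. By CPM, Cxcr3 and Cxcr6 in the other cells, at 288 and 144, were close to free RNA. Asb2, at 111 CPM in the other cells, was not far above its free RNA. These droplets numbered 188818 and held 3911381 UMIs in all. Their CPM is thus a share of the free RNA and not an amount per cell. The part of free RNA in the counts of the cells was not tested. The Gzmc shares of members and melanoma-rich barcodes differ too much in depth to be compared. By CPM Gzmc was higher in the members, at 15.5, but 8 of their 11 UMIs were in 1 cell. With so few cells behind it, that level is not read as a trait of the members.

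**Figure D2:**
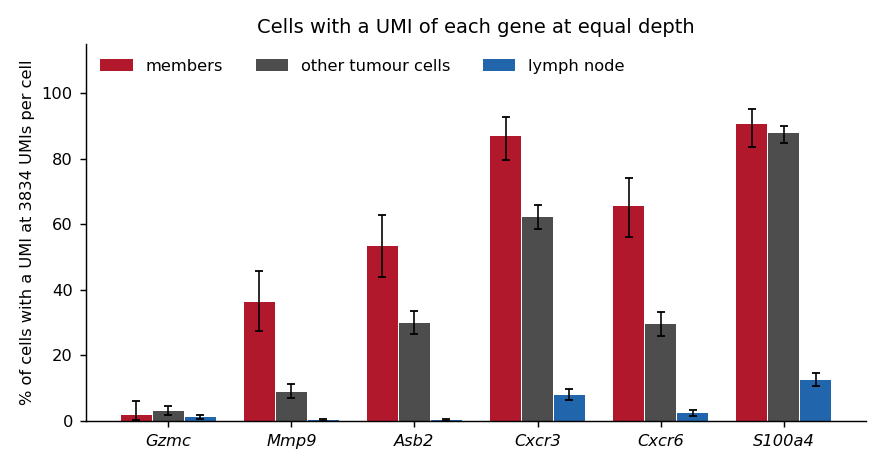
Percentage of cells with at least 1 UMI of each marker gene after every cell was thinned to 3834 UMIs, in members (116 cells), other tumour cells (658) and lymph node cells of that depth (1147). Bars start at 0 and whiskers are exact binomial 95% intervals, and Gzmc is at or under 3.04% in all groups while S100a4 is at 90.5% and 87.7% in the tumour groups.

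S100a4, a listed marker that the rule did not use, hardly separated the groups. It was at 1650.4 CPM in the members, 1424 in the other cells and 127 in lymph node cells, a ratio of 1.16 (1.09 to 1.23). At equal depth it was found in 90.5% of members and 87.7% of other cells, against 12.5% of lymph node cells. S100a4 thus parted tumour from lymph node cells far more than members from other tumour cells.

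The members were a mixture of cells led by different genes. By UMIs, Cxcr3 made up 41.1% of the summed score of the members, Cxcr6 35.0%, Asb2 15.6%, Mmp9 7.43% and Gzmc 0.851%. Cxcr3 was the leading gene in 51 members, Cxcr6 in 36, Asb2 in 12, Mmp9 in 1 and Gzmc in 1, and 15 had a tie. Members led by Cxcr6 held Cxcr3 at 316 CPM, near the 288 CPM of the other cells. Members led by Cxcr3 held Cxcr6 at 216 CPM, against 144 in the other cells, with a UMI in 24 of 51. Of the 5 genes, 10 members carried 1, 38 carried 2, 48 carried 3, 20 carried 4 and none carried 5. Cxcr3 and Cxcr6 occurred together in 73 members (62.9%) and in 203 other cells (30.9%), which the rule itself favours.

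When the cells were ranked without 1 of the 5 genes, that gene was hardly higher in the cells chosen by the other 4, except for Mmp9. Left-out Mmp9 was 2.67-fold (1.95 to 3.62) higher in the chosen 116 cells than in the rest, at 83.7 against 31.3 CPM and in 33 of 116 against 92 of 658 cells. Left-out Cxcr6 had a ratio of 1.15 (0.965 to 1.36), Asb2 one of 1.16 (0.940 to 1.43) and Cxcr3 one of 0.938 (0.820 to 1.07). The intervals of these 3 ratios hold 1, and the highest of their upper bounds is 1.43. With the top 20% taken, Asb2 had a ratio of 1.23 (1.03 to 1.48) and Cxcr6 one of 1.19 (1.03 to 1.38), so a small excess of both is within these data. The left-out Gzmc ratio of 2.51 (1.13 to 5.14) rests on the cell with 8 UMIs and was 0.567 when the top 10% were taken. The ratio of left-out Mmp9 was 1.86 when cells were ranked after thinning. A score without Cxcr3 kept 73 of the 116 members, one without Cxcr6 77, one without Asb2 92 and one without Mmp9 103.

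A random split of each cell's UMIs gave the excess of the 5 genes in molecules that did not choose the cells. Cells chosen on 50% of their UMIs had 3.68 times the level of the 5 genes of the rest in that part and 2.06 times (1.86 to 2.29) in the part not used for choosing. In the unused part Cxcr6 was 2.93-fold (2.43 to 3.51) higher, Mmp9 2.30-fold (1.48 to 3.49), Cxcr3 1.73-fold (1.47 to 2.03) and Asb2 1.69-fold (1.28 to 2.20). Of the cells chosen in each part, 45 were chosen in both. The excess of Cxcr6, Mmp9, Cxcr3 and Asb2 was thus smaller in the unused part, though above 1. The same genes in the same cells made the choice, so this describes how each gene varies between cells. It cannot show that the genes go together and is no support for the members as a group. With a second random split the 5 genes were 2.01-fold (1.81 to 2.23) higher in the unused part and 49 cells were chosen in both.

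**Figure D3:**
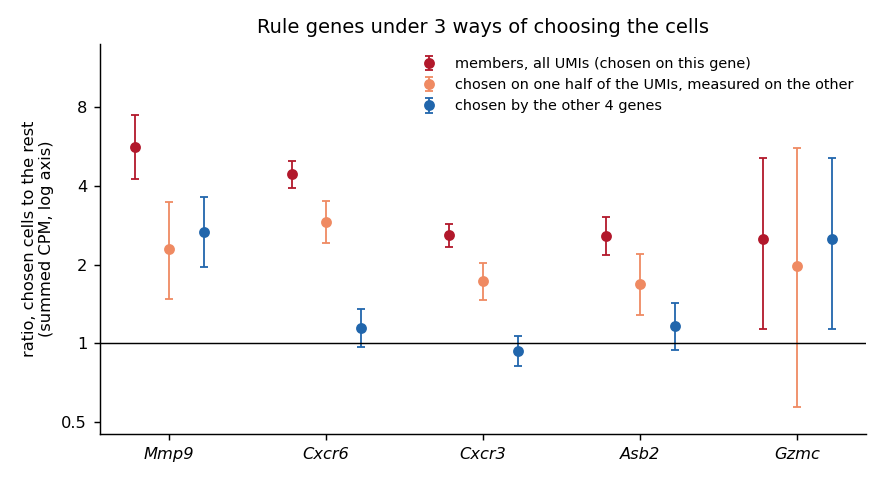
Ratio of summed CPM in the chosen 116 cells to the rest (log axis) for each rule gene, with 95% counting intervals, when cells were chosen on all UMIs, on a random 50% of UMIs with the ratio read in the remainder, or by the other 4 genes. Mmp9 stays above 1 under all 3, and Cxcr6, Cxcr3 and Asb2 are near 1 when they had no part in the choice.

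Over the 774 cells at equal depth, Spearman correlations between pairs of the rule genes ran from -0.08 to 0.11 with a median of 0.04 over 10 pairs, which in counts this sparse is no finding. The genes whose thinned counts went most with the thinned score, leaving out the rule genes, were H2-K1 (rho 0.25), H2-D1 (0.24), Ifngr1 (0.23), Fxyd5 (0.22), S100a4 (0.21), Gabarap (0.21), Ccr2 (0.20), Ly6a (0.20), Glrx (0.20) and Rac2 (0.19). The lowest was Eef1a1, a translation elongation factor, at -0.28. These coefficients are descriptions over cells of 1 library.

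Outside the rule, 526 of 6860 genes with at least 50 UMIs were at least 1.5-fold higher in the members (7.67%) and 465 at least 1.5-fold lower (6.78%). The whole interval lay beyond 1.5-fold for only 8 (0.117%) and 9 (0.131%). The members were chosen in the same cells, so these counts carry no test. The median log2 ratio over all these genes was 0.05. TMM scaling would lower every log2 ratio by 0.09 (a shift of -0.09) and gives 345 higher and 608 lower, so the balance of higher and lower genes depends on the scaling. The lists below use genes with at least 20 UMIs, so they can hold calls that rest on few UMIs. Over all 8723 genes with at least 20 UMIs, 956 were at least 1.5-fold higher (11%) and 951 lower (10.9%), and list counts are to be read against these shares.

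Some genes of resting, recirculating T cells were lower in the members, and others were not. Of 14 measured genes of the naive and central list, 6 were at least 1.5-fold lower, 1 higher and 7 between, with a median log2 ratio of -0.42, and 4 had an interval wholly below 1. Klf2, a quiescence factor, had a ratio of 1.07 (0.850 to 1.34) and Il7r, a chain of the IL-7 receptor, one of 0.913 (0.629 to 1.29). Ccr7, the receptor that guides T cells to lymph nodes, had 1 UMI in the members and 112 in the other cells, at 1.41 CPM in the members, 23.1 in the other cells and 188 in lymph node cells, 16.4-fold (2.88 to 653) lower. Tcf7, a transcription factor of quiescent T cells, had 5 and 89 UMIs (2.61-fold lower, 1.08 to 8.22), and Id3, an inhibitor of E proteins, 2 and 55 (4.03-fold lower, 1.06 to 34.1). All 3 were far higher in lymph node cells, at 188, 167 and 272 CPM. The genes counted as lower also included Klf3 and S1pr1, with 5 and 8 UMIs in members and intervals that hold 1, and Satb1, a chromatin organiser, was the higher one at 1.58-fold (1.05 to 2.31).

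Among the other chemokine receptors, Ccr2, the receptor for CCL2, was modestly higher. It stood at 537 CPM in the members, 413 in the other cells and 10.7 in lymph node cells (1.30, 1.16 to 1.45). Of the 14 measured genes of the list of chemokine receptors and homing genes without Cxcr3 and Cxcr6, 2 were at least 1.5-fold higher, Ccr3 and Ccr1 on 17 and 15 UMIs, and 5 lower, among them Ccr7, S1pr1, Cx3cr1 and Ccr6.

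Among type 1 genes, the receptor genes Ifngr1 and Il12rb2 were higher, and the transcription factor gene Tbx21 could not be told apart from the other cells. Ifngr1, a chain of the interferon-gamma receptor, was at 1272 CPM in the members, 887 in the other cells and 106 in lymph node cells (1.43, 1.33 to 1.54), and its UMIs were found at equal depth in 93.1% and 84.5% of cells. Il12rb2, a chain of the IL-12 receptor, had 18 and 54 UMIs, 2.28-fold (1.26 to 3.94) higher, and none in lymph node cells. Irf1, an interferon-gamma response factor, had a ratio of 1.40 (1.15 to 1.70). Tbx21, which encodes T-bet, was at 45.1 CPM in the members and 41.3 in the other cells, and its ratio of 1.09 (0.728 to 1.59) holds 1. Of 16 measured genes 3 were at least 1.5-fold higher, Ccl5, Il18rap and Il12rb2, and none lower, with a median log2 ratio of 0.13. Il18rap had 15 UMIs in members and an interval that holds 1 (1.74, 0.915 to 3.10).

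Proteases and their inhibitors beyond Mmp9 were led by the lysosomal cathepsin Ctsd, at 626 CPM in the members, 389 in the other cells and 119.9 in lymph node cells, a ratio of 1.61 (1.45 to 1.79). Adam8, a membrane metalloprotease of leukocytes, had a ratio of 1.44 (1.05 to 1.95), the MMP inhibitor Timp2 one of 1.30 (1.07 to 1.58) and cathepsin B (Ctsb) one of 1.22 (1.09 to 1.37). These 3 lay on the other side of 1 under a single setting each, Adam8 at 0.966 without cells with any mitotic UMI, Timp2 at 0.930 among cells up to the members' median depth and Ctsb at 0.943 in the unused part of the random split. Of 15 measured genes of this list without Mmp9, 3 were at least 1.5-fold higher, Ctsd, Adam10 and Lgmn, and none lower. Adam10 had 32 UMIs in members (1.52, 1.001 to 2.24), and Lgmn had 8 with an interval that holds 1 (1.88, 0.745 to 4.23). The median log2 ratio of the list was 0.01. The list as a whole thus stood near the median of all genes.

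Of the granule genes other than Gzmc, Gzmb, Serpina3g and Ctsw had ratios between 1.32 and 1.38 and the rest were mixed. Gzmb, which encodes granzyme B, was at 1683 CPM in the members, 1273 in the other cells and 3.49 in lymph node cells (1.32, 1.24 to 1.41), and a UMI was found at equal depth in 59.5% and 54.1% of members and other cells. Serpina3g, a protease inhibitor of lymphocytes, was at 686 CPM in the members and 506 in the other cells (1.35, 1.23 to 1.49). Its ratio was 0.946 in the unused part of the random split, but 1.20 with the second split. Ctsw had a ratio of 1.38 (1.15 to 1.66) and Nkg7, a granule membrane protein, one of 1.19 (1.11 to 1.28), which was 0.699 with Cxcr6 left out of the score. None of the 13 measured genes reached 1.5-fold higher, and Gzma and Lamp1 were at least 1.5-fold lower, Gzma with 1 UMI in the members and 40 in the other cells, and the list's median log2 ratio was 0.12.

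The partners of ASB2 were mostly within 1.5-fold of the other cells. Cul5, the cullin of the same ligase, was 1.69-fold (1.05 to 2.64) higher on 25 UMIs, at 35.3 CPM in the members and 20.9 in the other cells. Flna, which encodes a filamin that ASB2 is known to target, had a transcript ratio of 0.830 (0.599 to 1.13), and Jak3 one of 1.15 (0.817 to 1.58). Of 11 measured genes 1 was at least 1.5-fold higher and 1 lower, Asb13 on 7 UMIs in members, with a median log2 ratio of -0.24.

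Core Treg genes were level or slightly higher. Of 15 measured genes, Foxp3 was the only one at least 1.5-fold higher, none was lower, and the median log2 ratio was 0.18. Tnfrsf18, which encodes GITR, was at 1909 CPM in the members and 1607 in the other cells (1.19, 1.12 to 1.26), and Izumo1r, which encodes folate receptor 4, at 695 CPM in the members and 510.2 in the other cells (1.36, 1.24 to 1.5). The ratio of Izumo1r was 0.887 with Cxcr3 left out of the score. Il2rb had a ratio of 1.25 (1.11 to 1.40). Il2ra, which encodes CD25, had one of 0.890 (0.726 to 1.08) and Ctla4 one of 1.06 (0.974 to 1.16), intervals that hold 1.

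Costimulatory and inhibitory receptors were mostly at the level of the other cells, with Lilrb4a and Cd200r1 as the higher ones. Lilrb4a, an inhibitory receptor of the immunoglobulin superfamily, was at 124 CPM in the members, 60.3 in the other cells and 0.317 in lymph node cells, a ratio of 2.06 (1.60 to 2.62). Reads of its close copy Lilr4b, with 12 UMIs in members and 78 in other cells, could have been split with it. Cd200r1, the receptor for the inhibitory ligand CD200, was at 110.0 CPM in the members, 60.1 in the other cells and 16.4 in lymph node cells (1.83, 1.41 to 2.36), while Cd200 itself was 2.67-fold (1.32 to 6.30) lower on 8 UMIs.

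Lag3 was at 363 CPM in the members and 243 in the other cells (1.49, 1.30 to 1.71), but its ratio was 0.707 when Cxcr6 was left out of the score and 0.895 when cells were ranked by the mean rank of the 5 genes. Pdcd1 and Havcr2, both receptors of exhausted T cells, had ratios of 1.05 (0.886 to 1.25) and 1.13 (0.737 to 1.68). Tnfrsf4 (OX40) and Tnfrsf9 (4-1BB) had ratios of 0.988 (0.932 to 1.05) and 1.04 (0.965 to 1.12). Icos was at 639 CPM in the members and 526 in the other cells (1.21, 1.10 to 1.34). In the list of TNF receptors, 4 of 13 were at least 1.5-fold lower and none higher, and of the 4 only Tnfrsf25, with 4 and 83 UMIs, had an interval that excludes 1 (3.04-fold lower, 1.14 to 11.4).

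Among suppressive mediators, Ebi3, Fgl2 and Entpd1 were modestly higher. Ebi3, a subunit of IL-35, was at 126 CPM in the members, 91.1 in the other cells and 18.0 in lymph node cells (1.38, 1.09 to 1.74). Fgl2, a secreted suppressive fibrinogen-like protein, was at 286 CPM in the members, 207 in the other cells and 8.88 in lymph node cells (1.38, 1.18 to 1.61), and Entpd1, which encodes the ectoenzyme CD39, had a ratio of 1.45 (1.01 to 2.03). Il10 was at 126 CPM in the members, 82.4 in the other cells and 1.16 in lymph node cells with a ratio of 1.52 (1.20 to 1.92), but 71.9% of the members' Il10 UMIs came from 3 cells. At equal depth an Il10 UMI was found in 8.62% of members and 10.6% of other cells. Its ratio was 0.681 in the top 10%. In the unused part of the random split it was 0.456, but 1.90 with the second split, so the direction for Il10 is not settled. Il10 was the 1 of 15 measured genes past 1.5-fold.

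Chemokine ligands showed the same dependence on single cells. Ccl3 stood at 241 CPM in the members and 108 in the other cells (2.23, 1.86 to 2.65) and Ccl4 at 559 CPM in the members and 436 in the other cells (1.28, 1.15 to 1.43), with 78.4% and 73.0% of the members' UMIs in 3 cells each. At equal depth a Ccl3 UMI was found in 12.1% of members and 10.9% of other cells, and a Ccl4 UMI in 15.5% and 19.9%. Free RNA of the tumour library held 139 CPM of Ccl3 and 464 of Ccl4, more than the other cells. It also held 1481 CPM of Ccl5, 979 of S100a4 and 778 of Gzmb, less than the other cells. These are shares of the free RNA and not amounts per cell, and its part in the counts of the cells was not tested. With Cxcr6 left out of the score the ratios were 0.242 for Ccl3 and 0.375 for Ccl4. In the unused part of the random split they were 0.549 and 0.454, but 2.48 and 1.29 with the second split, so their direction is not settled. Ccl5, the most abundant of these ligands, was at 4318 CPM in the members, 2728 in the other cells and 51.7 in lymph node cells (1.58, 1.52 to 1.65), with 34.6% of UMIs in 3 members, and the median cell held 582 CPM in members and 610.0 in other cells. The list of cytokines and chemokine ligands held 17 measured genes, 5 of them past 1.5-fold upward and 3 downward. Il1rn, an antagonist of interleukin-1, had a ratio of 4.19 (2.24 to 7.65) with 78.9% of 19 UMIs in 3 cells.

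Csf1, a growth factor of macrophages, was more evenly spread. It had 55 UMIs in the members and 159 in the other cells, at 77.6 CPM in the members, 32.8 in the other cells and 6.03 in lymph node cells, a ratio of 2.36 (1.71 to 3.23). At equal depth a Csf1 UMI was found in 17.2% of members and 9.42% of other cells. The ratio was 1.25 with Cxcr6 left out of the score, and 0.952 among cells of at most the members' median depth. In the tumour cells highest in Ccl3 and Ccl4, compared below, Csf1 was at 90.7 CPM, so it was not particular to the members.

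The ligand of CXCR3 measured here was lower in the members that carry the receptor. Cxcl10 had 8 UMIs in the members and 446 in the other cells, at 11.3 CPM in the members, 92.1 in the other cells and 18.2 in lymph node cells, 8.16-fold (4.11 to 19.0) lower, and a UMI was found at equal depth in 5.17% and 10.9%. Without the 2% of cells with the most UMIs of the gene the ratio was 0.270, and with Asb2 left out of the score 0.638. It was 0.858 when mitotic cells were kept in the set and the members ranked again. Ccl1, a ligand of CCR8, had 3 and 187 UMIs (9.12-fold lower, 3.07 to 44.6). Without the 2% of cells with the most Ccl1 UMIs its ratio was 0.621, so most of this difference rests on few cells. Droplets of free RNA in the tumour library held 160.0 CPM of Cxcl10, more than either group of cells. Cxcl9 had 0 and 1 UMIs and Cxcl16, the ligand of CXCR6, 2 and 4.

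Interferon-stimulated genes were divided. Isg15, a ubiquitin-like modifier, was at 415 CPM in the members, 643 in the other cells and 93.5 in lymph node cells, 1.55-fold (1.38 to 1.75) lower, and Ifit3, an antiviral RNA-binding protein, at 131 CPM in the members, 229 in the other cells and 38.8 in lymph node cells, 1.75-fold (1.41 to 2.18) lower. Both were on the other side of 1 when mitotic cells were kept in the set and the members ranked again, at 1.15 and 1.51. Ly6a, an interferon-inducible surface protein, was at 4051 CPM in the members, 3330.3 in the other cells and 236 in lymph node cells (1.22, 1.17 to 1.27). Of 26 measured genes 4 were at least 1.5-fold lower, 1 higher and 21 between, with a median log2 ratio of -0.08.

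Heavy chains of MHC class I, which present peptides to CD8 T cells, were higher by small and well-counted amounts. H2-K1 was at 5092 CPM in the members, 3989.6 in the other cells and 2296 in lymph node cells (1.28, 1.23 to 1.32), and H2-D1 at 6004 CPM in the members, 5076 in the other cells and 2718 in lymph node cells (1.18, 1.14 to 1.22). H2-Q7 and H2-T23 had ratios of 1.30 (1.22 to 1.39) and 1.34 (1.16 to 1.53). These genes are close copies of each other, so the split of reads between them is uncertain. None of the 14 measured genes of class I presentation reached 1.5-fold in either direction, and the list's median log2 ratio of 0.07 was close to the 0.05 of all genes and would be below 0 after the TMM shift.

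Other genes that stood higher by the bound of the interval nearest to 1 included Pglyrp1, a peptidoglycan-recognition protein, at 1254 CPM in the members, 826 in the other cells and 98.5 in lymph node cells (1.52, 1.41 to 1.63). At equal depth Pglyrp1 was found in 92.2% of members and 83.3% of other cells. Metrnl, a secreted meteorin-like protein, was at 106 CPM in the members, 57.6 in the other cells and 0.529 in lymph node cells (1.84, 1.40 to 2.38) and was found in 35.3% and 18.2% of cells. Metrnl was close to absent from lymph node, with 5 UMIs. Lgals3, which encodes galectin-3, was at 245 CPM in the members and 163 in the other cells (1.51, 1.27 to 1.78), and Ahnak, a large scaffold protein, had a ratio of 1.39 (1.12 to 1.70). Osgin1, an oxidative stress response gene, and Leo1, a subunit of the PAF1 complex, had ratios of 3.02 (1.66 to 5.29) and 2.60 (1.56 to 4.23) on 19 and 24 UMIs in members.

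Many of the genes that build ribosomes were lower. This list was drawn up after the values had been seen. Of its 29 measured genes 17 were at least 1.5-fold lower, 1 higher and 11 between, with a median log2 ratio of -0.85, and over the 21 genes with at least 100 UMIs it was -0.56. Ddx21, a nucleolar RNA helicase, had 22 UMIs in the members and 322 in the other cells, at 31.0 CPM in the members, 66.5 in the other cells and 78.0 in lymph node cells, 2.14-fold (1.39 to 3.47) lower. Rsl1d1, a nucleolar protein, was at 35.3 CPM in the members and 70.8 in the other cells, 2.01-fold (1.34 to 3.15) lower, and Nhp2, a component of small nucleolar RNA particles, 1.83-fold (1.25 to 2.77) lower. Mrto4 and Ppan, factors of the large subunit, had 4 and 5 UMIs in members and were 4.76-fold (1.81 to 17.7) and 3.37-fold (1.40 to 10.6) lower. The members also had the smaller share of ribosomal protein UMIs given above, and the part of that share in these ratios was not tested.

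A few other transcripts were close to missing. Pdlim1, a cytoskeletal adaptor, had 1 UMI in members and 89 in the other cells (13-fold lower, 2.28 to 520.2). Cacna1s, a calcium channel subunit, had 0 UMIs in members and 58 in the other cells, and against a floor of 3 counts over the members it was at least 2.83-fold lower. Marcksl1, an actin-binding protein, was at 22.6 CPM in the members and 53.3 in the other cells (2.36-fold lower, 1.43 to 4.19), but its ratio was 1.20 with Cxcr3 left out of the score. Mif, a cytokine-like protein, was 1.38-fold (1.25 to 1.53) lower and the glycolysis enzyme gene Ldha 1.17-fold (1.09 to 1.25) lower, the latter at a ratio of 1.06 with Cxcr3 left out of the score.

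**Figure D4:**
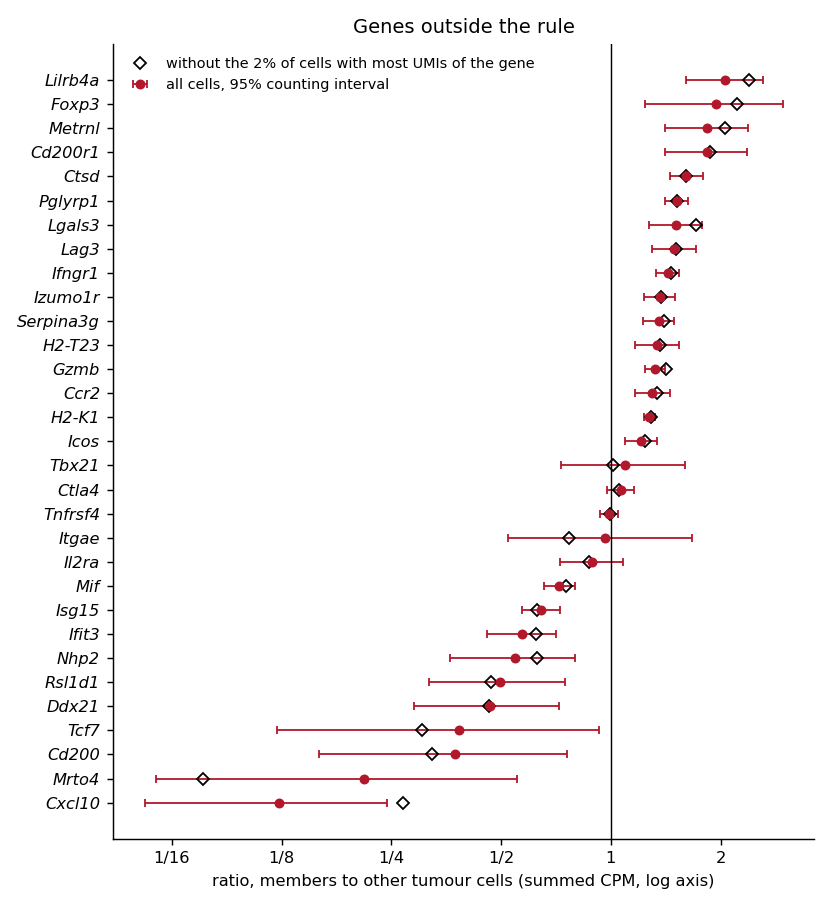
Ratio of summed CPM in members to other tumour cells (log axis) for genes outside the rule, with 95% counting intervals as bars, and the ratio without the 2% of cells with most UMIs of each gene as open diamonds. Lilrb4a and Foxp3 are at the top, Ctla4, Tnfrsf4 and Itgae lie near 1, and Mrto4 and Cxcl10 are at the bottom with wide intervals.

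The members led by Cxcr6 differed from those led by Cxcr3 in more than these receptors. This division was made after the values had been seen, and it compares 36 cells at a median of 5936 UMIs with 51 at 5700. Lag3 was at 612 CPM in the members led by Cxcr6 and 202 in those led by Cxcr3, 3.02-fold (2.22 to 4.15) higher. In each group 3 cells held much of it, 45.8% and 47.5% of its UMIs, and the median cells held 197 and 0 CPM. Id2, a transcriptional regulator of effector T cells, was at 1367 and 607 CPM (2.25-fold higher, 1.87 to 2.72), and Tnfrsf9 at 1563 and 878 (1.78-fold, 1.52 to 2.09). Klrg1, a receptor of terminally differentiated cells, was 1.80-fold (1.22 to 2.67) higher, Ctsd 1.66-fold (1.33 to 2.07) and Ctla4 1.44-fold (1.20 to 1.74). For Klrg1, 3 cells of each group held 38.0% and 52.2% of the UMIs.

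The reverse held for Ifit3, at 76.0 CPM in the members led by Cxcr6 and 209 in those led by Cxcr3 (2.75-fold lower, 1.62 to 4.88), and for Ifngr1 (1.32-fold lower, 1.13 to 1.54). Ccl3 and Ccl4 had 155 and 371 UMIs in the members led by Cxcr6 and 4 each in those led by Cxcr3, but 86.5% and 77.9% of the former were in 3 cells. Ccl5 was 2.63-fold (2.42 to 2.86) higher, with 56.9% of its UMIs in 3 cells and median cells of 1117 and 470.0 CPM. H2-K1, Ikzf2, S100a4, Ccr2 and Metrnl had ratios between 0.953 and 1.06 with intervals that hold 1. The ratios of members to other cells moved the same way with the score: Ifngr1 went from 1.43 to 1.02 with Cxcr3 left out, and Id2 from 1.30 to 0.980 with Cxcr6 left out.

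**Figure D5:**
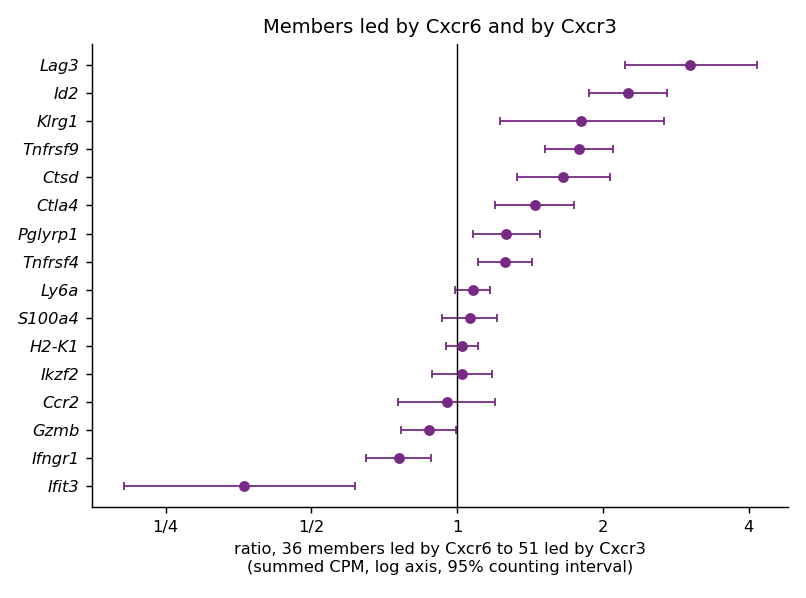
Ratio of summed CPM in the 36 members led by Cxcr6 to the 51 led by Cxcr3 (log axis), with 95% counting intervals, for genes outside the rule. Lag3, Id2, Klrg1 and Tnfrsf9 lie to the right, Ifit3 and Ifngr1 to the left, and H2-K1 and Ikzf2 near 1.

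The members were also compared with 2 classes drawn in the same way, each the top 116 of the same 774 cells. They shared 16 cells (13.8% of each) with the cells highest in Ccl3 and Ccl4 and 21 (18.1%) with those highest in Gzmb. Members are 15% of the 774 cells. Between cells that were only members and cells only of the class, S100a4 was 1.31-fold (1.20 to 1.44) higher than in the Ccl3 and Ccl4 class, but had a ratio of 0.821 (0.754 to 0.893) to the Gzmb class. Foxp3 was 2.22-fold (1.07 to 4.79) higher than in the Ccl3 and Ccl4 class, and its ratio to the Gzmb class was 1.57 (0.844 to 2.97). Csf1 had a ratio of 0.733 (0.464 to 1.14) to the Ccl3 and Ccl4 class and 3.55 (2.02 to 6.57) to the Gzmb class. Il10 was lower than in both, with ratios of 0.252 (0.155 to 0.392) and 0.278 (0.179 to 0.419).

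The members' marker transcripts were rare in lymph node cells to different degrees. Among 2126 lymph node cells, Mmp9 had 6 UMIs, Asb2 12 and Gzmc 23. Cxcr3 had 360 UMIs in 201 of these cells, Cxcr6 150 in 74 and S100a4 1201 in 272. Outside the markers, Ccl3 had no UMI and Gzmb had 33. Only 1 of 1147 lymph node cells thinned to the tumour depth reached the members' boundary (0.0872%), against 116 of the 774 thinned tumour cells. That number happens to equal the number of members, but a ranking after thinning shared 89 cells with them. Among the mitotic tumour cells that the rule set aside, 33 of 683 reached it (4.83%), at a median depth of 14387 UMIs.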

How the data were processed

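Single cells from 1 tumour library and 1 lymph node library were read as deposited raw UMI counts per gene and barcode. Per the submitters' processing notes, Cell Ranger and mm10 were used, with no version or setting stated. The deposited counts hold all barcodes, so cells were called at 10% of the 99th percentile of UMIs among the 3000 largest barcodes. No doublet caller was run. Tumour cells with at least 20 melanoma UMIs (Pmel, Dct, Mlana), 3 macrophage UMIs (C1qa, C1qb, Lyz2) or 2 mitotic UMIs (Mki67, Top2a, Ube2c, Cdk1, Birc5) were set aside, and the top 15% by share of UMIs in Gzmc, Mmp9, Asb2, Cxcr3 and Cxcr6 are the members. Counts were summed per group, and ratios carry exact 95% binomial intervals. Genes with at least 50 UMIs counted as higher or lower from 1.5-fold, without the rule genes. Scripts ran in Python 3.11.15 with numpy 2.4.6, scipy 1.17.1 and pandas 2.3.3, and edgeR 4.0.16 in R 4.3.3 gave TMM factors. They were tested on simulated data. Named genes come from the listed markers, a fixed panel, the 15 highest and 15 lowest ratios ranked by the conservative end of the interval, up to 4 genes of each list and 2 of each marker list by size, and the 10 genes most like the score. Of these the text gives a selection made after the values were seen, as are the genes named beside small counts of calls. The members and lists were chosen with earlier results of these data known, and 2 lists were added after values were seen. Some members of the lists are counted but not reported here by name.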

Additional observations from a re-analysis of the deposited data

How the results depend on the processing

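The number of genes at least 1.5-fold from the other cells depended strongly on the settings, and the direction of many named genes did too. Genes at least 1.5-fold lower numbered 730.0 with the top 10% as members, and genes higher numbered 345 under TMM scaling. Higher and lower genes numbered 2101 and 3570.0 with no filter beyond 1 UMI, 72 and 46 from 200 UMIs, 61 and 162 at 2-fold, and 8 and 9 with the whole interval beyond 1.5-fold. They numbered 205 and 264 in cells up to the members' median UMIs and 1079 and 1514 with mitotic cells kept, both chosen after seeing the data. 4 of these settings change only which genes are counted. Over the other 21, 34 of 80 named genes lay on the other side of 1 at least once, in 86 of 1664 ratios, and the rest did not, 33 above 1 and 13 below. Genes past 1.5-fold that changed side, in 24 ratios, were these. Ccl3 had ratios of 0.718 in the top 10%, 0.242 without Cxcr6 in the score, 0.549 in the unused part of the random split, 0.947 without the 5% of cells with most UMIs and 0.741 in cells up to the members' median UMIs. Il10 had 0.681 in the top 10%, 0.669 ranked after thinning, 0.946 without Mmp9, 0.880 without Asb2, 0.456 in the unused part of the random split, 0.633 without any mitotic UMI and 0.750 in cells up to the median. Ccl5 had 0.882 without Cxcr6 and 0.576 in cells up to the median, where Csf1 had 0.952. Gzmc had 0.420 when cells with a mitotic UMI were left out and 0.854 when the 2% of cells richest in Gzmc were left out, Il1rn 0.643 by mean rank, and, without Cxcr3 in the score, Cxcr3 0.938 and Marcksl1 1.20. With mitotic cells kept, Tcf7 had 1.07, Tnfrsf25 1.01, Isg15 1.15 and Ifit3 1.51. Ccl4, whose ratio was under 1.5-fold, had 0.967 as a mean over cells, 0.542 in the top 10%, 0.375 without Cxcr6, 0.454 in the unused part of the random split and 0.754 when the 5% deepest cells were left out. With the second random split Ccl3 had 2.48, Il10 1.90 and Ccl4 1.29, so the values below 1 in the first split did not recur. In cells chosen by the other 4 genes, Gzmc had 0.567 and Cxcr3 1.09 in the top 10%, and Mmp9 1.86 when ranked after thinning. The share of other cells with a Gzmc UMI was 1.82% with another thinning seed. The cause of these changes was not tested. No paired analysis was possible because each tissue has 1 library. A median of 10 score UMIs per member limits how sharply any cell can be placed.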
